A study of Mus musculus with 8 samples.

Results

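The 39 cytochrome P450 genes described here, of 8251 genes in all, were read in mouse lung on 46 of the 12422 probe sets of an Affymetrix mouse oligonucleotide array. A probe set is a group of short DNA probes that together report 1 transcript. Members were chosen by name: the single gene symbol annotated to the probe set begins with Cyp and a digit, and Cyp2f2 was not included. A further 7 P450 probe sets are annotated with several genes each and are not members.

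Whole lungs had come from mice of 2 substrains, C3H/HeJ and C3H/HeOuJ, that breathed filtered air or ozone, and total RNA of the frozen lungs had been hybridised. C3H/HeJ mice are known for a poor response to endotoxin, and C3H/HeOuJ mice for a normal one. Strain and exposure together make 4 groups of 2 arrays, named 1a and 1b. The labels time the exposure at 72 h in both C3H/HeOuJ groups; the time in C3H/HeJ, the ages and the ozone concentration are not given in the sources. Since no label ties the 2 arrays of a group to different animals, a p-value here covers the spread between arrays, which may be technical.

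Cytochromes P450 are haem enzymes that insert 1 atom of molecular oxygen into a substrate, with electrons from a reductase. Members of families 1 to 3 oxidise drugs, toxicants and other foreign compounds, family 4 hydroxylates fatty acids and eicosanoids, and further families make or break down sterols, bile acids, steroid hormones, retinoids and vitamin D. The liver holds most of the body's P450 activity, but the lung has its own set, much of it in the club cells of the airway lining, which activate inhaled toxicants such as naphthalene.

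Each array gives 1 linear intensity for a probe set. Array medians ran from 351 to 386, and between 17.7% and 21.0% of the probe sets of an array lay below 69.6, the floor used here for dim values. Probe sets above that floor on fewer than 2 of the 8 arrays are called dim, those above the median of their own array on all 8 arrays bright, and the rest intermediate. Of the markers of lung cells, 4 of 6 probe sets for club cells, 5 of 7 for alveolar type 2 cells, 4 of 5 for alveolar type 1 cells and 7 of 9 for endothelium were bright, with 2 of 4 for ciliated cells, 4 of 9 for macrophages and 2 of 5 for fat. For liver it was 0 of 8, although 6 of these 8 were above the dim range. Intensities of different probe sets depend on their probes and are not set against each other as amounts of RNA.

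Of the 46 P450 probe sets, 32 lay above the dim range in lung, and these covered 29 of the 39 genes. In that number 8 were bright and 24 intermediate, and the other 14 were dim. As shares, 17.4% of the P450 probe sets were bright, 52.2% intermediate and 30.4% dim, against 40.8%, 47.3% and 11.8% of all probe sets. A total of 16 P450 probe sets were above the floor on all 8 arrays, and 11 were above it on none. The limit is a loose one: of 19 probe sets for genes of other organs, such as pituitary and testis, 12 were above the floor on at least 2 arrays and 2 were bright.

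**Figure D1:**
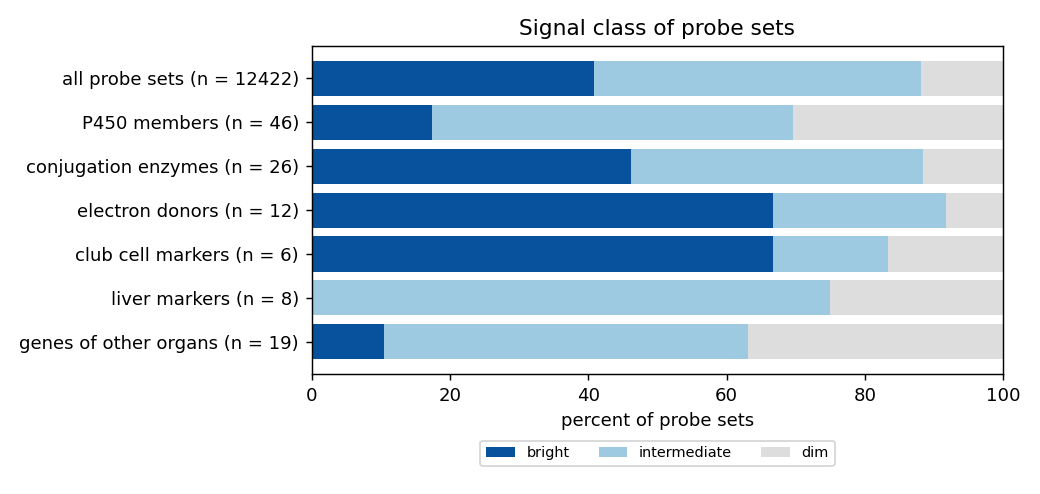
Share of probe sets that were bright, intermediate or dim in lung, in percent, for all probe sets, the P450 members, conjugation enzymes, electron donors, markers of club cells and liver, and genes of other organs, with the number of probe sets in each. A smaller share of the P450 members was bright (17.4%) than of all probe sets (40.8%), against 0 of the 8 liver markers and 2 of the 19 for other organs.

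The bright genes were Cyp4b1, Cyp2b10, Cyp4v3, Cyp2s1, Cyp21a1, Cyp2e1, Cyp4a12b and Cyp2c38. The intermediate genes of families 1 to 3 were Cyp1a1 (on both of its probe sets), Cyp1a2, Cyp1b1, Cyp2a12, Cyp2b9, Cyp2b19, Cyp2c29, Cyp2c39, Cyp2c70, Cyp2d9 and Cyp3a13. The other intermediate genes were Cyp4a10, Cyp4a14, Cyp4f13 (on both probe sets), Cyp7a1, Cyp7b1 (on both), Cyp8b1, Cyp51, Cyp17a1, Cyp24a1 and Cyp27b1. Dim genes were Cyp2b13, Cyp2d10 (on both probe sets), Cyp2d26, Cyp2j5, Cyp2j6, Cyp3a11, Cyp3a16, Cyp3a25, Cyp11a1 and Cyp26a1, as was a second probe set each of Cyp1b1, Cyp17a1 and Cyp24a1. Just inside the limit, 1 probe set of Cyp4f13 and that of Cyp7a1 were above the floor on 2 arrays. Just outside it, Cyp26a1, Cyp2b13 and Cyp3a25 were above it on 1 array.

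By role, families 1 to 3 held 26 probe sets, of which 4 were bright, 12 intermediate and 10 dim. Family 4 held 7, of which 3 were bright and 4 intermediate. The 5 for sterol and bile acid metabolism were all intermediate. Of the 4 for steroid hormone synthesis, 1 was bright, 1 intermediate and 2 dim, and of the 4 for retinoid and vitamin D metabolism 2 were intermediate and 2 dim.

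**Figure D2:**
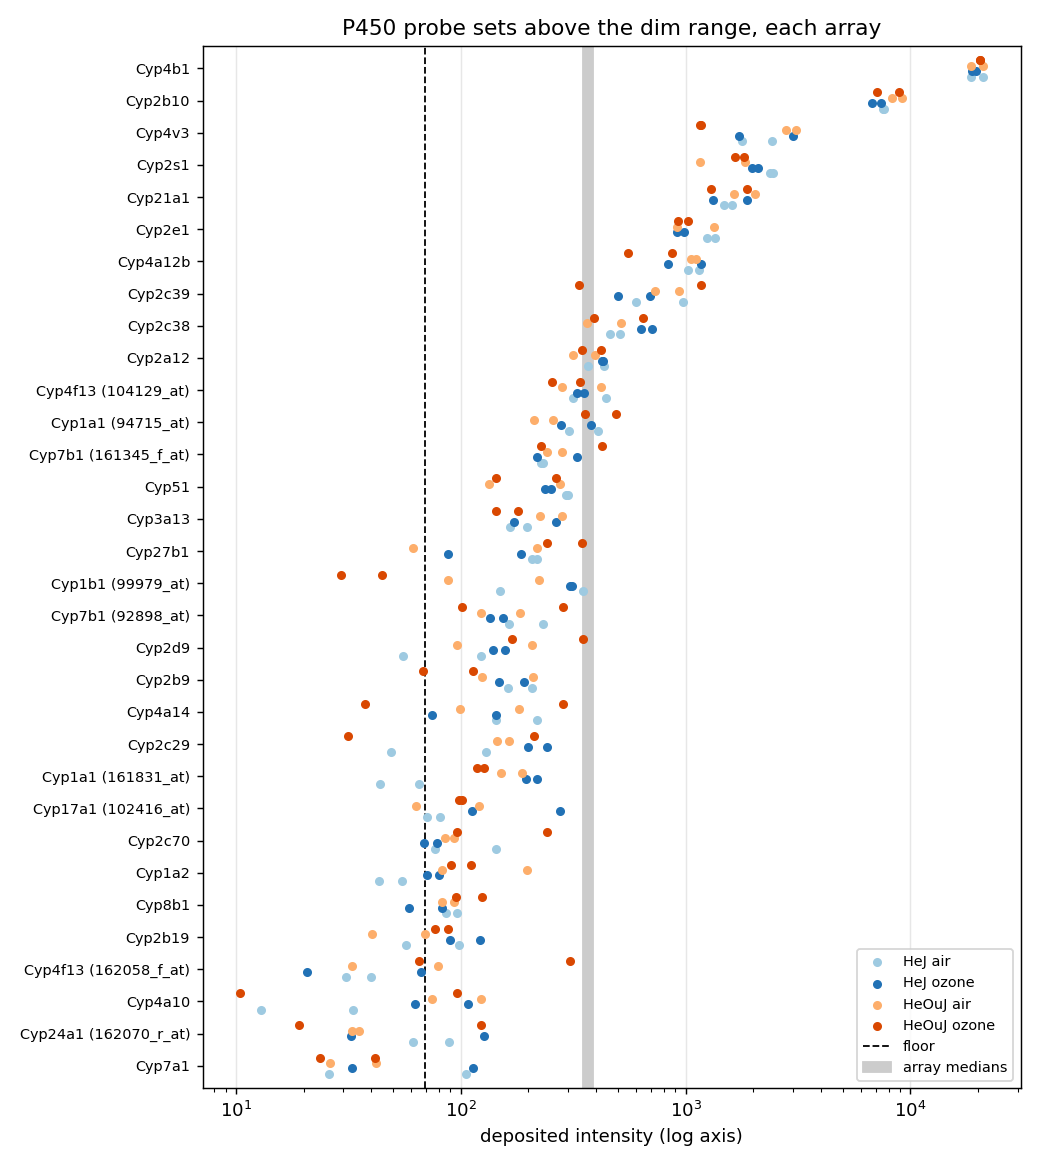
Intensity (log axis) of each of the 32 P450 probe sets above the dim range on each of the 8 arrays, ordered by mean, with the floor of 69.6 (dashed) and the range of the array medians (grey) marked. Points are arrays, coloured by group; Cyp4b1 stays between 18632 and 21112 and Cyp2b10 between 6769 and 9170.2, while the points of the intermediate probe sets spread more widely.

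The genomic DNA just upstream of 3 members is shown because these genes gave the smallest p-values among the P450 genes in the comparisons that follow: Cyp1a1 in 3 of them, Cyp1b1 in 2 and Cyp4v3 in 2. Each window runs from 250 bases before to 50 bases after the RefSeq start of the gene on the GRCm38.p6 build, 5′ to 3′ on the gene's strand. Capitals mark GCGTG or its reverse complement CACGC, the core letters of the element that the aryl hydrocarbon receptor, the sensor of dioxin-like compounds, binds together with Arnt. The Cyp1a1 window is chr9:57697363-57697662 on the plus strand, with the match beginning at position -54. The Cyp1b1 window is chr17:79715012-79715311 on the minus strand, with the match at -76, and the Cyp4v3 window is chr8:45333114-45333413 on the minus strand, with the match at -16.
Cyp1a1: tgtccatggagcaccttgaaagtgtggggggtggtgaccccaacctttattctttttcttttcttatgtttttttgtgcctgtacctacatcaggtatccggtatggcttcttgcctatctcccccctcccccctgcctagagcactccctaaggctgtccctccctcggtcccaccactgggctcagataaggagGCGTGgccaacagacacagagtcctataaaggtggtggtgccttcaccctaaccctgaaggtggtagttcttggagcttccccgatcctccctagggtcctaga
Cyp1b1: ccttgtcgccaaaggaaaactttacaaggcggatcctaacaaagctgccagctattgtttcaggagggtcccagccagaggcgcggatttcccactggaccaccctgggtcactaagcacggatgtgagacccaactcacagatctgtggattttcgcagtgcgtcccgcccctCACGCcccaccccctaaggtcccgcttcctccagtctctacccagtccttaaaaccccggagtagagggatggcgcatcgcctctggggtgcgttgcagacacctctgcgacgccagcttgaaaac
Cyp4v3: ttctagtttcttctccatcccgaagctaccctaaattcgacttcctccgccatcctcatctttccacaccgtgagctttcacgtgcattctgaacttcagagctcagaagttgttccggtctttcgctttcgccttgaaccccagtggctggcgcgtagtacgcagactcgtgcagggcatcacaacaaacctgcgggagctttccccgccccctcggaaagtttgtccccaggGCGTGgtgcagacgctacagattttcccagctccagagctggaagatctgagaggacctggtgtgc
The letters are common: GCGTG on either strand was in 10639 of 32851 RefSeq windows of this length (32.4%) and in 5 of the 34 windows of the 31 member genes that had one (14.7%). The 5 belong to Cyp1a1, Cyp1b1, Cyp2b10, Cyp4v3 and Cyp51. A match is a description of the letters and does not show binding.

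Cyp4b1, which hydroxylates fatty acids and activates pneumotoxins such as ipomeanol, was the brightest member. Its intensity was 20979 and 18632 in C3H/HeJ air, 19532 and 18872 in C3H/HeJ ozone, 21112 and 18669 in C3H/HeOuJ air, and 20370.2 and 20357 in C3H/HeOuJ ozone. The exposures overlapped in each strain, and in ozone both C3H/HeOuJ arrays were above both C3H/HeJ arrays. Ozone over air gave a log2 fold change of -0.04 in C3H/HeJ (95% interval -0.42 to 0.34) and of 0.04 in C3H/HeOuJ (-0.34 to 0.42). Cyp2b10, the mouse gene best known as a target of the nuclear receptor CAR, read 7575 and 7613, then 6769 and 7389, in C3H/HeJ air and ozone. In C3H/HeOuJ it read 8256 and 9170.2 in air and 7104 and 8877 in ozone. Its ozone effect was -0.10 in C3H/HeJ (-0.45 to 0.24) and -0.13 in C3H/HeOuJ (-0.47 to 0.21), so for both genes the intervals left out a 2-fold change in either direction.

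Cyp4v3, a fatty acid hydroxylase whose human counterpart is mutated in Bietti crystalline dystrophy of the retina, had the smallest p of the members for ozone in C3H/HeOuJ. It read 2793 and 3101 in C3H/HeOuJ air and 1177 and 1155 in C3H/HeOuJ ozone. In C3H/HeJ it read 1789 and 2419 in air and 1722 and 3003 in ozone. Both C3H/HeOuJ ozone arrays were therefore below the other 6. The log2 fold change for ozone in C3H/HeOuJ was -1.34 (SE 0.25, 95% interval -1.91 to -0.76), a level 2.52-fold lower, with an adjusted p of 0.0675 in limma, which did not pass 0.05. With the probe sets limited to those above the floor on all 8 arrays the adjusted p was 0.0311, and with the replicate letters as a block it was 0.0476. Both settings also called more of all probe sets than the main fit did. Quantile normalisation, median centring and floors at the 10th or 30th percentile gave adjusted p-values from 0.0551 to 0.0640. The adjusted p was 0.174 without a filter, 0.149 without the intensity trend and 0.351 with only the C3H/HeOuJ arrays. Leaving out each array in turn gave log2 fold changes from -1.41 to -1.26. The same 2 arrays stood apart in RNA quality: the ratio of 5′ to 3′ signal of the actin control was 0.766 and 0.756 there. It was 0.598 and 0.603 in C3H/HeOuJ air and 0.432 to 0.530 on the C3H/HeJ arrays. Every C3H/HeOuJ array was thus above every C3H/HeJ array in this ratio, and strain differences cannot be told apart from it. The 5′ to 3′ covariate used here and below was the mean of the log2 ratios of the actin and Gapdh controls. With it the log2 fold change was -0.63 (SE 0.49, adjusted p = 0.920).

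**Figure D3:**
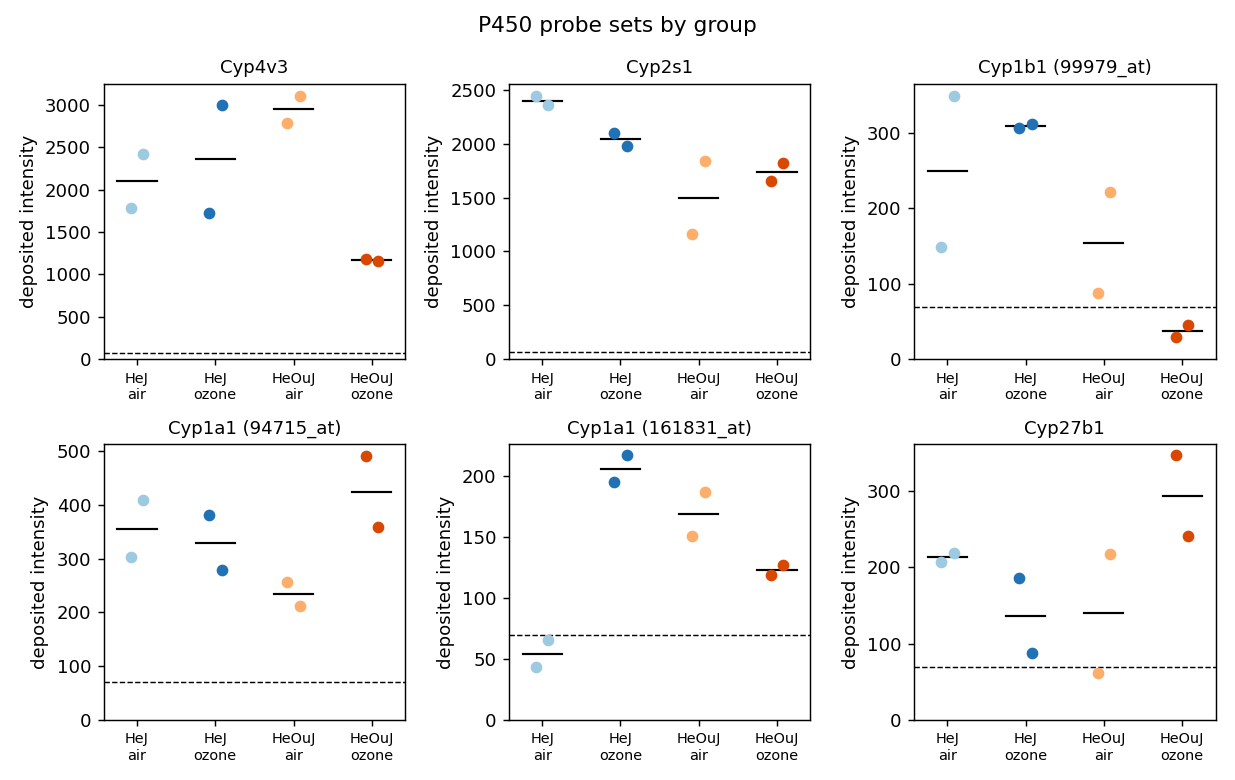
Intensity (linear axis from 0) on each array, by group, of Cyp4v3, Cyp2s1, Cyp1b1, Cyp1a1 (the brighter probe set at the left, the dimmer one in the middle) and Cyp27b1. Each point is 1 array, each bar a group mean and the dashed line the floor; the 2 points of C3H/HeOuJ in ozone lie lowest for Cyp4v3 (1155 and 1177) and for Cyp1b1 (29.2 and 44.8, under the floor of 69.6).

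Cyp2s1, an epithelial P450 of airways and skin, was the other bright member with a p under 0.05 between the strains. It read 2442 and 2365 in C3H/HeJ air and 1160.2 and 1841 in C3H/HeOuJ air, without overlap. In ozone it read 2103 and 1981 in C3H/HeJ and 1659 and 1823 in C3H/HeOuJ. C3H/HeOuJ over C3H/HeJ was -0.72 in air (SE 0.20, adjusted p = 0.690 in limma) and -0.47 averaged over the exposures (SE 0.14, adjusted p = 0.229). Without C3H/HeOuJ air array 1a these values were -0.38 and -0.31, and without 1b the value in air was -1.05. All 4 C3H/HeOuJ arrays were below all 4 C3H/HeJ arrays, and neither comparison passed the threshold. With the 5′ to 3′ ratio as a covariate, the averaged difference was 0.08 (SE 0.45). As given above, the actin ratio separated the strains too.

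Cyp2e1, which oxidises ethanol and other small molecules, read 1356 and 1246 in C3H/HeJ air, 979 and 919.6 in C3H/HeJ ozone, 1332 and 913 in C3H/HeOuJ air, and 926 and 1020.3 in C3H/HeOuJ ozone. Its ozone effect was -0.45 in C3H/HeJ (SE 0.20, adjusted p = 1.00 in limma), where the arrays did not overlap, and in C3H/HeOuJ they overlapped. Cyp2c38, an arachidonic acid epoxygenase, read 459 and 509 in C3H/HeJ air and 708 and 636 in C3H/HeJ ozone, again without overlap and with an adjusted p of 1.00. In C3H/HeOuJ it read 364 and 519 in air and 648 and 392 in ozone, so the exposures overlapped there.

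Cyp4a12b, a hydroxylase of fatty acids, read 1142 and 1027 in C3H/HeJ air, 833 and 1167 in C3H/HeJ ozone, 1116 and 1053 in C3H/HeOuJ air, and 552 and 873 in C3H/HeOuJ ozone. Its ozone effect in C3H/HeOuJ was -0.64 (SE 0.25, adjusted p = 0.274 in limma), with both ozone arrays below both air arrays. It was -0.31 without C3H/HeOuJ ozone array 1a and -0.97 without 1b. Cyp4f13, of the leukotriene hydroxylase subfamily, read between 256 and 441 on its brighter probe set. Its groups overlapped: 316 and 441, then 327 and 353, in C3H/HeJ air and ozone, and 282 and 419, then 256 and 338, in C3H/HeOuJ. Cyp4a14 (37.6 to 285) and Cyp4a10 (10.4 to 124), which peroxisome proliferators raise in liver, were intermediate. Family 4 as a whole had 2 probe sets higher, 4 lower and 1 at the floor on all 4 arrays in ozone against air in C3H/HeJ (median -0.04), and 3 higher and 4 lower in C3H/HeOuJ (median -0.23).

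Cyp1a1, the classic target of the aryl hydrocarbon receptor, had 2 probe sets, both intermediate, and they disagreed. On the dimmer one it read 43.7 and 65.1 in C3H/HeJ air and 195 and 218 in C3H/HeJ ozone. In C3H/HeOuJ the dimmer probe set read 151 and 187 in air and 119 and 127 in ozone. Both C3H/HeJ air arrays were under the floor and were set to it. The fitted log2 fold change for ozone in C3H/HeJ was 1.56 (SE 0.32, adjusted p = 0.535 in limma). Its interval ran from 0.84 to 2.29, so the fitted level, 2.96-fold higher in ozone, is an estimate and not a minimum. The fitted value was 1.95 with a floor at the 10th percentile of all values and 0.62 with one at the 30th. On the brighter one the gene read 303 and 409.7 in C3H/HeJ air and 381 and 278 in C3H/HeJ ozone, which overlapped. In C3H/HeOuJ that probe set read 256 and 213 in air and 492 and 358 in ozone, a log2 fold change of 0.85 (SE 0.35, adjusted p = 0.295 in limma). The dimmer probe set was thus higher in ozone in C3H/HeJ (1.56 against -0.11 on the brighter), and the brighter one in C3H/HeOuJ (0.85 against -0.45 on the dimmer), with no value past the adjusted threshold.

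Cyp1b1, another target of that receptor, read 149 and 349.6 in C3H/HeJ air, 306 and 312 in C3H/HeJ ozone, 87.3 and 222 in C3H/HeOuJ air, and 29.2 and 44.8 in C3H/HeOuJ ozone. Both C3H/HeOuJ ozone arrays were under the floor and were set to it. The fitted log2 fold change of C3H/HeOuJ over C3H/HeJ in ozone was -2.15 (SE 0.55, adjusted p = 0.0987 in limma). Its interval ran from -3.39 to -0.91, so the fitted level, 4.44-fold higher in C3H/HeJ, is an estimate and not a minimum. The fitted value was -3.07 with the floor at the 10th percentile and -1.20 at the 30th, and with the 5′ to 3′ ratio as a covariate it was 1.32 (SE 1.24). Averaged over the exposures the strain difference was -1.43 (SE 0.39, adjusted p = 0.188). The second Cyp1b1 probe set was under the floor on all 8 arrays (5.10 to 59.6). Its highest values were those of C3H/HeOuJ ozone (45.9 and 59.6), unlike on the first probe set. Cyp1a2, mainly a liver enzyme, read 54.6 and 43.3 in C3H/HeJ air, 70.6 and 79.7 in C3H/HeJ ozone, 198 and 82.3 in C3H/HeOuJ air, and 111 and 90.3 in C3H/HeOuJ ozone. Both C3H/HeJ air arrays of Cyp1a2 were under the floor and were set to it, so its fitted differences depend on the floor. Cyp1a2 was higher on every C3H/HeOuJ array than on any C3H/HeJ array, by 0.64 averaged over the exposures (SE 0.29, adjusted p = 0.396). That difference was 0.33 without C3H/HeOuJ air array 1a and -0.54 with the 5′ to 3′ ratio as a covariate. The actin ratio separated the strains here as well.

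The other intermediate members of families 1 to 3 had no adjusted p under 0.05 in limma. Cyp2a12 read 433 and 369, then 423 and 428, in C3H/HeJ air and ozone, and 396 and 316, then 420.1 and 347, in C3H/HeOuJ air and ozone. Cyp2c39, a retinoic acid hydroxylase, read 603 and 977, then 696 and 499, in C3H/HeJ, and 729 and 933, then 334 and 1166, in C3H/HeOuJ. Its lowest and its highest array were thus replicates of 1 group. Cyp2b9, a relative of Cyp2b10, read 207 and 163, then 148 and 191, in C3H/HeJ air and ozone, and 210.1 and 124, then 114 and 68.0, in C3H/HeOuJ. The C3H/HeOuJ ozone arrays were the lowest 2 of its 8, with -0.92 against C3H/HeJ ozone (SE 0.42, adjusted p = 0.299 in limma) and -0.55 for the strains averaged over the exposures (SE 0.30, adjusted p = 0.486). Without C3H/HeOuJ ozone array 1b the first value was -0.56, and without C3H/HeOuJ air array 1b the second was -0.36. Cyp2c29, an epoxygenase of the liver, read 129 and 49.1, then 199.5 and 243, in C3H/HeJ air and ozone, and 144 and 165, then 211 and 31.5, in C3H/HeOuJ. Its values of 49.1 and 31.5 were under the floor and were set to it. Its ozone effect was 1.22 in C3H/HeJ (SE 0.55, adjusted p = 1.00), or 0.77 without C3H/HeJ air array 1b, and its C3H/HeOuJ ozone arrays lay on both sides of the air arrays. The rest ranged from 143 to 283 for Cyp3a13, from 55.5 to 349 for Cyp2d9, from 68.4 to 242 for Cyp2c70 and from 40.1 to 122 for Cyp2b19, a P450 of the skin, and none of them had an unadjusted p under 0.05 in any comparison.

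Among the genes of endogenous substrates, Cyp27b1, which makes the active form of vitamin D, read 207 and 219, then 186 and 87.7, in C3H/HeJ air and ozone. In C3H/HeOuJ it read 61.4 and 218 in air and 347 and 241 in ozone. The value of 61.4 was under the floor and was set to it. Ozone over air was -0.74 in C3H/HeJ and 1.23 in C3H/HeOuJ (SE 0.59 each), and the difference of these effects, 1.97 (SE 0.83), had an adjusted p of 0.429 in limma. Without C3H/HeOuJ air array 1a the effect in C3H/HeOuJ was 0.41 and the difference 1.15, and without 1b the effect was 2.06. Cyp17a1, which turns progestins toward androgens, read 80.6 and 70.7 in C3H/HeJ air and 113 and 276 in C3H/HeJ ozone, 1.22 higher (SE 0.46, adjusted p = 1.00 in limma). That value was 1.87 without C3H/HeJ ozone array 1a and 0.58 without 1b. In C3H/HeOuJ it read 121 and 63.1 in air and 101 and 98.7 in ozone, which overlapped, and its other probe set was dim (5.57 to 24.5). Cyp21a1, the steroid 21-hydroxylase of the adrenal cortex, was bright, with 1613 and 1488, then 1321 and 1877, in C3H/HeJ air and ozone. In C3H/HeOuJ it read 2033 and 1641 in air and 1302 and 1867 in ozone, and the exposures overlapped in both strains. Cyp51, the lanosterol demethylase of cholesterol synthesis, averaged 238 over the 8 arrays, and the bile acid genes Cyp7b1 (102 to 427 over both probe sets) and Cyp8b1 (59.0 to 125) were intermediate too. Cyp7a1, the rate-limiting enzyme of bile acid synthesis in liver, ranged from 23.5 to 114, and the brighter probe set of Cyp24a1, which inactivates vitamin D, from 19.0 to 127. Cyp26a1, which breaks down retinoic acid, had the highest mean of the dim members (52.8).

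In limma, none of the 32 P450 probe sets tested had an adjusted p under 0.05 in any of the 7 comparisons. For ozone in C3H/HeJ the count was 0 of 32, against 0% of all 10953 probe sets tested, and 2 members (6.25%) had an unadjusted p under 0.05 against 4.35% of all. For ozone in C3H/HeOuJ it was 0 of 32 against 0.456%, and 3 (9.38%) by the unadjusted p against 15.5%. These 3 were Cyp4v3, Cyp4a12b and the brighter probe set of Cyp1a1. Between the strains in air the count was 0 against 0.0456% (2 members by the unadjusted p, against 5.71%), and in ozone it was 0 against 0.977% (3 members, against 18%). Averaged over the strains, ozone gave 0 against 0.0183% (2 members by the unadjusted p, against 9.25%), and averaged over the exposures the strains gave 0 against 0.155% (2 members, against 13%). The difference between the ozone effects of the strains gave 0 against 0%, and 3 members by the unadjusted p, against 11.4%.

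The directions of the 32 members above the dim range were mixed. Ozone in C3H/HeJ had 16 higher, 15 lower and 1 at the floor on all 4 arrays compared, with a median log2 fold change of 0.01, as over all probe sets tested (0.01). Ozone in C3H/HeOuJ had 17 higher, 14 lower and 1 at the floor, with a median of 0.03 against 0.02. C3H/HeOuJ over C3H/HeJ had 15 higher and 17 lower in air (median -0.09 against 0.01) and 14 higher and 18 lower in ozone (median -0.05 against 0.02). The size of the difference, without its sign, had a median of 0.29 for ozone in C3H/HeOuJ and 0.26 in C3H/HeJ among members, against 0.30 and 0.19 over all probe sets tested. The comparisons share groups of arrays, so their values are not separate evidence.

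**Figure D4:**
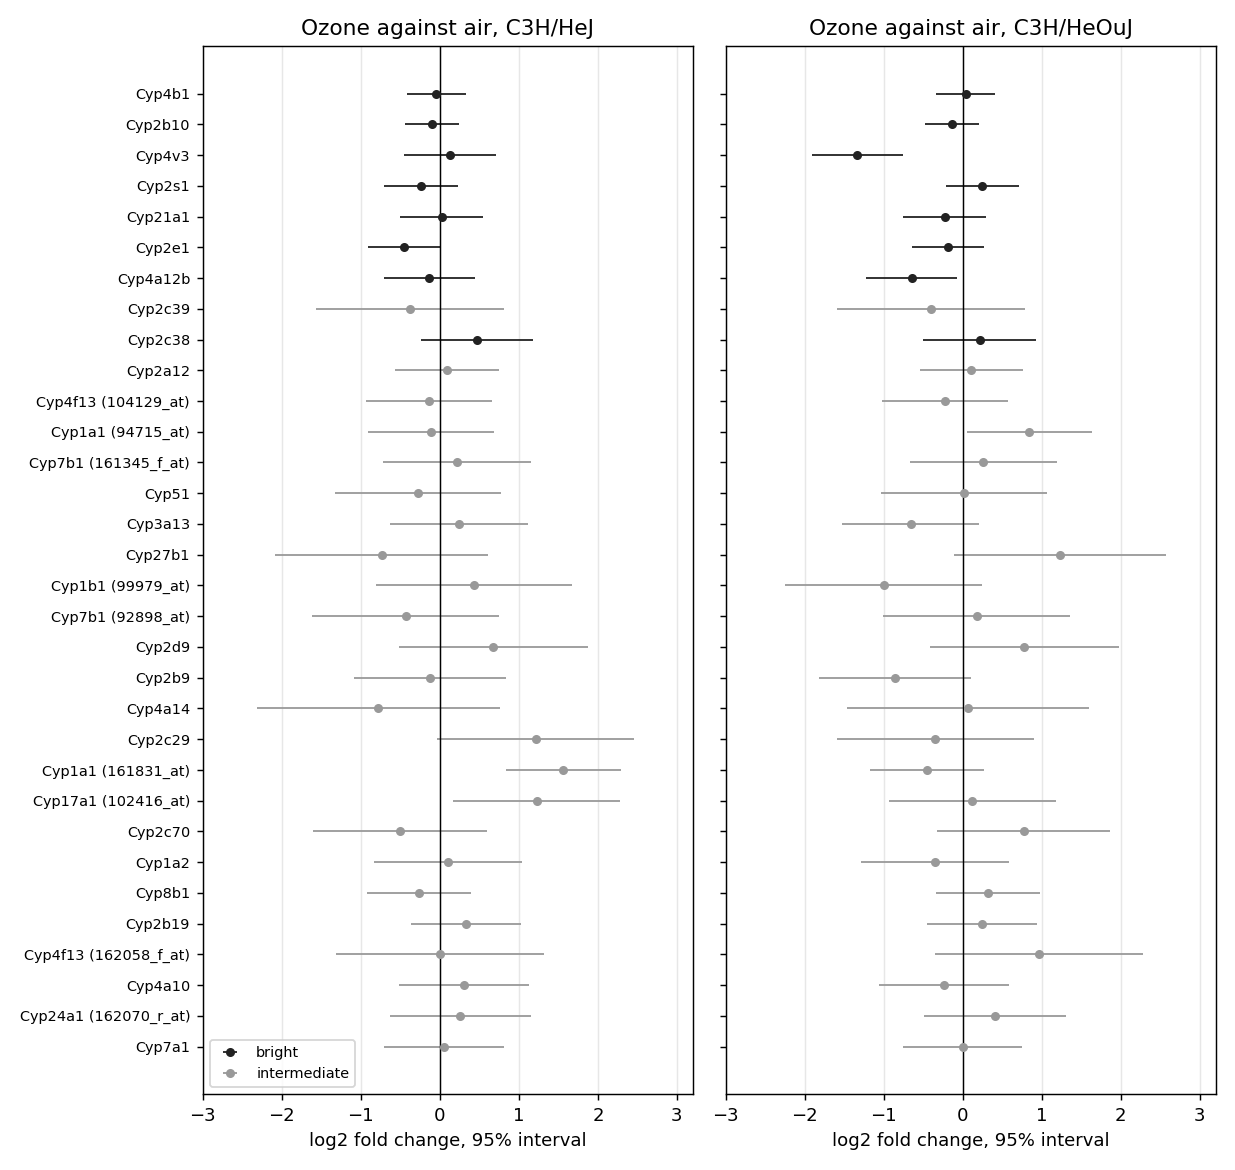
Log2 fold change of ozone over air for each of the 32 P450 probe sets above the dim range, in C3H/HeJ and in C3H/HeOuJ, with 95% intervals from limma. Most intervals include 0; Cyp4v3 in C3H/HeOuJ (-1.34) and the dimmer Cyp1a1 probe set in C3H/HeJ (1.56) lie farthest from it.

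What the arrays could show differed with brightness. For a comparison of 2 arrays with 2, the log2 fold changes of bright members had a median standard error of 0.22, those of all 32 members 0.37 and those over all probe sets tested 0.30. The replicates of a group differed by a median of 0.15 (log2) for bright members and 0.40 for intermediate ones, against 0.20 and 0.38 for all probe sets of those classes. The 95% interval for ozone left out a 2-fold change in either direction for 7 of 8 bright members in C3H/HeJ and 6 of 8 in C3H/HeOuJ. Among the 24 intermediate members it did so for 5 in C3H/HeJ and 4 in C3H/HeOuJ, so for the others a 2-fold change was not left out. Values set to the floor can make such an interval narrow. Cyp7a1, counted among the 4 in C3H/HeOuJ, was under the floor on all 4 arrays there. Its fitted change of 0 (-0.76 to 0.76) comes from the floor and does not measure its RNA.

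Markers of lung cell types were read beside these values. A sum of intensities follows its brightest probe sets and is set only against the same sum in other groups. The club cell list held Scgb1a1, Cyp2f2, Aldh1a1, Hp and Krt15, with means over the 8 arrays from 53681 for Scgb1a1 down to 15.2 for Krt15. The 6 club cell probe sets summed to 118517 to 143087 in C3H/HeJ air, 106181 to 134050 in C3H/HeJ ozone and 101847 to 136567 in C3H/HeOuJ air, and to 156359 to 161663 in C3H/HeOuJ ozone, the highest group. Of the 5 of them tested, 4 were higher and 1 lower in ozone in C3H/HeOuJ (median 0.37), none past an adjusted p of 0.05 in limma and 1 with an unadjusted p under 0.05. Alveolar type 2 markers also summed highest in C3H/HeOuJ ozone (165519 to 177949 against 109157 to 138531 in the other groups), but 4 were higher and 3 lower there with ozone (median 0.03). Endothelial markers summed lowest (41059 to 42717 against 45008 to 54722), with 1 higher and 7 lower (median -0.34). The 9 macrophage probe sets summed to less in ozone in both strains: 6630 to 7410 in air and 4915 to 5652 in ozone in C3H/HeJ, and 10755 to 12132 and 6709 to 7596 in C3H/HeOuJ, where 1 of the 6 tested was called lower, against 0.456% of all probe sets called in either direction. That one was Chil3, with a mean of 6005 in air and 2589 in ozone, while the bright Cd68 probe set averaged 1627 and 2168. In whole lung, fewer cells of a type and less RNA per cell cannot be told apart, and the part of these shifts in the P450 values was not tested.

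The genes that serve P450 enzymes were read from 7 lists with 84 probe sets of 62 genes: electron donors, haem synthesis, the aryl hydrocarbon receptor and its regulators, nuclear receptors, epoxide hydrolases, other monooxygenases and eicosanoid enzymes, and conjugation enzymes. Of these, 74 were tested and 0 passed an adjusted p of 0.05 in limma in any comparison. For ozone, 1 was higher and 2 lower by an unadjusted p under 0.05 in C3H/HeJ, and 8 were higher and 4 lower in C3H/HeOuJ, which is 16.2% against 15.5% of all probe sets tested. Cyb5a, the cytochrome b5 that passes electrons to P450 enzymes, averaged 7036 ± 522 in C3H/HeOuJ air and 10346 ± 1713 in C3H/HeOuJ ozone (SD, n = 2), a log2 fold change of 0.55 (SE 0.15, adjusted p = 0.150). In C3H/HeJ it averaged 7326 ± 175 in air and 6906 ± 454 in ozone.

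The receptor gene Ahr averaged 1165 ± 157 in C3H/HeOuJ air and 749 ± 72.3 in C3H/HeOuJ ozone (SD, n = 2), a log2 fold change of -0.63 (SE 0.21, adjusted p = 0.216 in limma). In C3H/HeJ it averaged 1224 ± 318 in air and 1358 ± 112 in ozone. Tiparp, an inducible repressor of that receptor, averaged 668 ± 6.66 and 358 ± 24.7 in C3H/HeOuJ air and ozone, -0.90 (SE 0.21, adjusted p = 0.106), and 553 ± 0.924 and 697 ± 18.2 in C3H/HeJ. Neither passed the threshold. Of the 7 tested probe sets for the receptor and its regulators, 4 were higher and 3 lower in ozone in C3H/HeOuJ (median 0.21). The C3H/HeOuJ ozone arrays stood apart in the 5′ to 3′ ratio of the actin control (0.766 and 0.756). The conjugation enzyme with the smallest p was Gsto1, a glutathione transferase, with 2305 ± 137 and 3933 ± 533 in C3H/HeOuJ air and ozone, 0.77 (SE 0.15, adjusted p = 0.0695). Fmo1, a flavin monooxygenase that oxidises many of the same drugs, averaged between 10810 and 11486 in the 4 groups and differed by -0.07 and 0.05 with ozone (SE 0.14 each).

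Several P450 genes lie next to each other in the genome, and neighbours could differ in brightness. With at most 5 protein-coding genes between neighbours, 24 of the 39 member genes fell into 8 clusters. On chromosome 7, Cyp2s1 and Cyp2b10 were bright, Cyp2b9 intermediate and Cyp2b13 dim in a cluster of 4. On chromosome 4, Cyp4a12b and Cyp4b1 were bright and Cyp4a14 and Cyp4a10 intermediate. On chromosome 5 the 3 genes Cyp3a16, Cyp3a11 and Cyp3a25, of the main drug-oxidising subfamily of liver, were all dim, and on chromosome 9 Cyp1a1 and Cyp1a2 were intermediate and Cyp11a1 dim. Members of a subfamily are close in sequence, and 6 of the 46 probe sets carry the suffix _f_at and 2 the suffix _s_at, which mark probes shared within a family or with another transcript. Cyp4b1, Cyp2c38 and Cyp4a10 were read on such _f_at probe sets, and Cyp7b1, Cyp4f13 and Cyp17a1 on 1 each beside another probe set. Values of _f_at probe sets may include RNA of relatives. A further 3 carry another suffix, _r_at. Among them is the only Cyp24a1 probe set above the dim range, which was above the floor on 3 arrays.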

How the data were processed

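Total RNA of mouse lung was read on 8 arrays. Per the deposited table itself, each probe set has 1 linear intensity an array, already scaled: the 2% trimmed mean of every array was close to 800.4. The software behind these values is not named in the sources. After 66 controls were set aside, 12422 probe sets remained. Intensities under 69.6, the 20th percentile of the whole table, were set to that floor before the log2 step. The 10953 probe sets above this floor on at least 2 arrays were tested. A single model with a mean for each of the 4 groups was fitted to all 8 arrays with limma 3.58.1 (lmFit, contrasts.fit and eBayes with trend; 4 residual and 4.54 prior degrees of freedom) in R 4.3.3. Benjamini-Hochberg adjustment of the two-sided p-values ran over all probe sets tested. Positive values mean ozone over air or C3H/HeOuJ over C3H/HeJ. The model was tested on simulated data. The number of arrays limits the precision.

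Symbols are those of a 2016 annotation of the array, which gives 10833 probe sets a single gene, 396 several and 1193 none. Promoter windows were RefSeq's, on GRCm38.p6: all 39 genes matched by gene ID and 31 had a window. Array values are given for the 12 brightest members and the 4 of smallest p in each of 7 comparisons. Members, lists and tests were chosen with earlier results of these data known. Alternatives covered normalisation, floor, filter, variance model, threshold, the 5′ to 3′ ratio, replicate letters as a block, and leaving out each array. Tables and figures were made with Python 3.11.15, pandas 2.3.3 and matplotlib 3.10.9.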

Additional observations from a re-analysis of the deposited data

How the results depend on the processing

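In each of the 7 comparisons 0 members were called in the main fit. Fits that left out an array kept only 1 array in its group, so no counts are given for them. The count for ozone in C3H/HeOuJ was 1 (Cyp4v3) with probe sets above the floor on all 8 arrays, with the replicate block and at an adjusted p under 0.1, and 3 at an unadjusted p under 0.05. For the strains in ozone it was 1 (Cyp1b1) at an adjusted p under 0.1 and 3 unadjusted. By the unadjusted p it was 2 for ozone in C3H/HeJ, 2 for the strains in air, 2 for mean ozone, 2 for mean strain and 3 for the interaction. In each comparison, these settings also called more of all probe sets than the main fit did. The shares of all probe sets by the unadjusted p are given with the comparisons above. The members above the dim range were 16 with the limit at all 8 arrays, 43 with the floor at the 10th percentile and 24 at the 30th. With the 5′ to 3′ ratio as a covariate, 5 values turned. The strain difference in ozone turned to 1.32 for Cyp1b1 and to 0.14 for Cyp4v3. The mean strain difference turned to 1.13 for Cyp1b1, to 0.084 for Cyp2s1 and to -0.54 for Cyp1a2. That covariate is close to the C3H/HeOuJ ozone group, and its actin part was higher on every C3H/HeOuJ array than on any C3H/HeJ array. The cause was not tested. Of 473 values of named members under an alternative, 466 kept direction and side of the threshold. This count does not measure stability, because no member passed in the main fit and many alternatives cannot move the fold change. The letters 1a and 1b were not shown to pair arrays (correlations of deviations -0.01 to 0.14).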

Other observations

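The probe set of Cyp21a1, which carries the suffix _s_at for shared probes, has a listed source sequence that is also that of 1 probe set of Tnxb and 2 of Atf6b. Cyp21a1 read 1302 to 2033. The 2 Atf6b probe sets read 406 to 834 and 732 to 1183, and the Tnxb probe set 81.6 to 324. Cyp11a1, which makes the first steroid of the adrenal pathway, was dim on all 8 arrays (24.3 to 46.4). Of 12 other probe sets listed for adrenal cortex and gonad, 2 were bright, 7 intermediate and 3 dim. The bright ones were 1 of Nr5a1 (4333 to 5992) and 1 of Fdx1 (3465 to 5091), and the other probe sets of these genes were intermediate or dim. Whether the listed genes are confined to adrenal cortex and gonad was not tested. Which gene's RNA the Cyp21a1 value reports was not tested.

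The letters TATAAA, on either strand, were in 16 of the 34 promoter windows of P450 genes (47.1%) and in 13.6% of all 32851 windows. Cyp1a1, Cyp1a2, Cyp2e1, Cyp2c38, Cyp3a11 and Cyp8b1 were among the genes with a match. The match was found in windows of bright, intermediate and dim members.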
